A study of Mus musculus with 10 samples.

Results

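The genes described here are 53 regulators, enzymes and motor proteins of the cell cycle, and they were compared between mammary tumours of mice that lacked Ezh2 in the tumour cells and tumours of mice that kept it. They were sorted into 14 genes of the G1 phase, 15 of S phase and 24 of the passage through mitosis, and 51 of them were measured among the 22180 genes on the array. A gene was read from the probe sets that carry its symbol alone, and where there were several, the one brightest on average over the 10 arrays was used. Ccne2 had only a probe set that it shares with Ints8, and Ccnb1 had none listed, so these cyclins have no value. The groups were 5 Ezh2-/- tumours and, as controls, 5 Ezh2+/+ tumours, each on 1 Affymetrix Mouse Gene array and labelled as biological replicates. All came from female FVB mice with the Tet-ON PyVmT transgenes. In these mice the MMTV promoter drives the doxycycline-dependent transactivator in the mammary epithelium, and doxycycline switches on a bicistronic transgene for the polyomavirus middle T oncogene and Cre recombinase. Cre removes the conditional Ezh2 allele in the Ezh2-/- mice, and the Ezh2+/+ mice carry the same oncogene, Cre and doxycycline. The labels give age as endpoint, the total tumour burden at which mice were killed, and by the methods doxycycline was started in young adults. Age at death was thus set by how fast tumours arose and grew. The authors report that tumours arose significantly later in Ezh2-/- mice. Age and time on doxycycline are thus confounded with genotype and cannot be told apart from it here. The ages of these mice are not given. RNA came from whole frozen tumours, in which Cre-negative stroma keeps Ezh2, and fewer cells of a type and less RNA per cell cannot be told apart in them.

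A dividing cell passes from G1, in which D-type cyclins and their kinases phosphorylate the retinoblastoma protein and release E2F transcription factors, into S phase, in which the licensed origins fire and the genome is copied. It then passes through G2 into mitosis, which cyclin-dependent kinase 1 starts and the anaphase-promoting complex ends. The genes of the phases are transcribed in waves, those of G1 and S phase largely through E2F sites and those of mitosis largely through CCAAT boxes and the cell cycle genes homology region (CHR). Ezh2, the methyltransferase of the PRC2 complex, deposits the repressive mark H3K27me3 and is itself an E2F target that is abundant in dividing cells.

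Promoters are shown for 8 members whose values are given below, because the motifs in them differ between the phases. RefSeq windows of 300 bases (250 before the transcription start and 50 from it on, GRCm38.p6) were found for 42 of the 53 members and were searched on both strands for the CHR element TTTGAA, the CCAAT box CCAAT and the E2F site TTTCGCGC or TTTGGCGC. Each stretch holds 160 bases before the start and the first 20 bases from it on, 5′ to 3′ on the gene's strand, and capitals mark every match to 1 of these motifs on either strand, so that ATTGG and TTCAAA are matches on the opposite strand. Cdk1 lies at chr10:69352893-69353072 (minus strand), Ccnb2 at chr9:70421535-70421714 (minus), Cdc20 at chr4:118437324-118437503 (minus), Ube2c at chr2:164769769-164769948 (plus), Mki67 at chr7:135716360-135716539 (minus), Mcm5 at chr8:75109349-75109528 (plus), Mcm6 at chr1:128359686-128359865 (minus) and Cdc6 at chr11:98907991-98908170 (plus).
Cdk1: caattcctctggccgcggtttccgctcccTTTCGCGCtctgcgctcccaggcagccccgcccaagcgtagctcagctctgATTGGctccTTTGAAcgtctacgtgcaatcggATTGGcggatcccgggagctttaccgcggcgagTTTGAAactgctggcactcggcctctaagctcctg
Ccnb2: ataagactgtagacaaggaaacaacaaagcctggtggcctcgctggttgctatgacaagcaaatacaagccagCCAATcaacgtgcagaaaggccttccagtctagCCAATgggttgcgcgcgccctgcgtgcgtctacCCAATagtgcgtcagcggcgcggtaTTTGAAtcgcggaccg
Cdc20: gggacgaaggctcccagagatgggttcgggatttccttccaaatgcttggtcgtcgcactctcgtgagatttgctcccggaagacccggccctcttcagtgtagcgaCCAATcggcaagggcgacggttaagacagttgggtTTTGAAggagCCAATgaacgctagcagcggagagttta
Ube2c: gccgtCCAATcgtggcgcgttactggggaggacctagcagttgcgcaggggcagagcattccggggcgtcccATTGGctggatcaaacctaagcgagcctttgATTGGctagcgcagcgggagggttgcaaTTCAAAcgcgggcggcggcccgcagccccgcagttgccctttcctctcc
Mki67: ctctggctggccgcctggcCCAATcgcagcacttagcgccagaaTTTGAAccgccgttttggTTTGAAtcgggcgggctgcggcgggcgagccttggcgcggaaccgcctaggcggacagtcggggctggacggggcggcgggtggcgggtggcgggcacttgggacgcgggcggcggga
Mcm5: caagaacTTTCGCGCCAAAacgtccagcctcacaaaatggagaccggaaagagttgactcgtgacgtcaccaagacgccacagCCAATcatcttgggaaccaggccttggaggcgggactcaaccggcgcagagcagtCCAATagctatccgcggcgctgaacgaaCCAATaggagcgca
Mcm6: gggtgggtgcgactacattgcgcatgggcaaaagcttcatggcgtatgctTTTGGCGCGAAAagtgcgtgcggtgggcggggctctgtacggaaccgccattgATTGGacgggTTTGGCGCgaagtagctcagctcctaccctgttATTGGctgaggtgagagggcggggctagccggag
Cdc6: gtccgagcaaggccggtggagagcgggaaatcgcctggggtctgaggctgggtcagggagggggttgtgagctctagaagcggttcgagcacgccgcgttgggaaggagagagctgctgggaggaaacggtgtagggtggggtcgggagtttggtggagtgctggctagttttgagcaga

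The CHR letters stood in a window of 13 of the 19 mitotic members that had one, against 2 of 13 S phase members and 2 of 10 G1 members, and they stood in 17.8% of the 16990 tested genes with a window and in 17.9% of all 32851 windows. Each of those 13 mitotic members also held a CCAAT box, as did 8.08% of the tested genes. A CCAAT box, with CHR letters or without, was held by 18 of 19 mitotic, 8 of 13 S phase and 5 of 10 G1 members, and by 41.6% of tested genes and 37.4% of all windows. In Cdk1 the CHR letters began 71 and 15 bases before the start, in Cdc20 18 and in Ube2c 29 bases before it, and in Ccnb2 167 bases before it, outside the printed stretch, and at base 5 from the start on. The E2F letters were held by 5 of 13 S phase members (Cdt1, Mcm3, Mcm5, Mcm6 and Mcm7), 3 of 10 G1 members (Cdc25a, E2f2 and Rbl1) and, among mitotic members, by Cdk1, against 1.24% of tested genes and 0.813% of all windows. In Mcm5 and in Mcm6 a pair of these matches overlapped on opposite strands, 153 and 110 bases before the start. The window of Cdc6, the S phase member whose signal differed between the genotypes, held no match to the letters searched. The E2F search covered only the spellings given above, and other spellings were not searched. These matches thus do not show that Cdc6 or any other member lacks an E2F site. A match is a description of the letters and was not tested as a binding site.

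Ezh2 itself had log2 signals of 6.46, 6.36, 6.38, 6.42 and 6.50 in Ezh2-/- replicates 1 to 5, and higher ones of 7.63, 7.66, 6.98, 7.69 and 7.33 in Ezh2+/+ replicates 1 to 5 (log2 fold change −1.03, adjusted p = 0.000770 from limma). The place of its probes relative to the deletion is not given in the sources used here. Arrays correlated at 0.965 to 0.982 within a genotype and at 0.930 to 0.962 between genotypes, and no 2 arrays were identical. The deposited distributions were not aligned: array medians lay between 4.35 and 4.46 in Ezh2-/- tumours, but between 4.54 and 4.67 in Ezh2+/+ tumours. Markers of luminal epithelium (0 of 8 changed) had summed log2 signals of 11.9 to 12.3 in Ezh2-/- tumours, against 12.0 to 12.3 in Ezh2+/+ tumours. Of the fibroblast markers, 7 of 8 were higher in Ezh2-/- tumours, where their summed log2 signal was 11.0 to 12.2, against 9.06 to 10.5 in Ezh2+/+ tumours. Markers of endothelium were higher in 4 of 6, of macrophages in 3 of 6, of T cells in 3 of 5 and of basal cells in 1 of 4, while none of 2 B cell, 5 adipocyte and 5 skeletal muscle markers passed the test. Some Ezh2-/- tumours stood apart in these all the same. The summed log2 signal of skeletal muscle markers was 12.1 and 10.8 in Ezh2-/- replicates 1 and 5, against 7.59 to 8.35 in the other Ezh2-/- tumours and 7.32 to 8.17 in Ezh2+/+ tumours. That of adipocyte markers was 7.48 to 10.8 in Ezh2-/- tumours, highest in replicate 1, against 7.18 to 9.20 in Ezh2+/+ tumours, and that of B cell markers 4.87 to 7.45, highest in replicate 5, against 4.61 to 5.33.

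The first question was whether loss of Ezh2 went with another level of the cell cycle genes at endpoint. It did so for 4 of the 51 measured members, all higher in Ezh2-/- tumours and none lower: Ccnd2, Ccnd3 and Rb1 of the 13 G1 members and Cdc6 of the 15 S phase members, with log2 fold changes of 0.43 to 1.16. No mitotic member of 23 changed by limma over the 10 tumours. In a fit chosen after the data were seen that left out Ezh2-/- replicates 1 and 5, the tumours with high muscle markers, 8 members were higher and 0 lower, against 10.6% of all genes higher: the same 4, E2f3 (log2 fold change 0.65, adjusted p = 0.0171 from limma) and the mitotic genes Mki67 (0.87, adjusted p = 0.0487), Cenpe (0.71, adjusted p = 0.0170) and Cenpf (0.58, adjusted p = 0.0143). In E2f3, Mki67, Cenpe and Cenpf, replicates 1 and 5 had the lowest signals of the Ezh2-/- tumours. Leaving them out by itself raises these fold changes and narrows the spread, so the added calls are no support for a difference. The part of muscle, fat and lymphoid cells in the values was not tested. Over all genes 7.29% were higher and 7.56% lower at an adjusted p under 0.05 (limma with Benjamini-Hochberg adjustment). The 4 higher of 51 is thus close to the share of all genes, and 0 lower is below it. Dim genes weigh on these shares: without the 40% dimmest genes, limma had 1412 of 13308 genes higher and 535 lower. All 51 members stayed in that fit, with 4 higher and 0 lower. At an unadjusted p under 0.05, limma had 10 members higher and 0 lower (5 in G1, 2 in S phase and 3 in mitosis), against 18.0% of all genes higher and 15.6% lower. The equal-variance test per gene named in the methods had 8 members higher and 1 lower at an unadjusted p under 0.05, against 16.1% and 15.0% of all genes. After adjustment it kept Ccnd3 alone, against 3.89% of all genes higher. Every Ezh2-/- tumour lay above every Ezh2+/+ tumour in 2 members, Ccnd3 and Rb1, against 5.05% of all genes, and the reverse was seen in 0 members, against 6.63% of all genes.

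**Figure D1:**
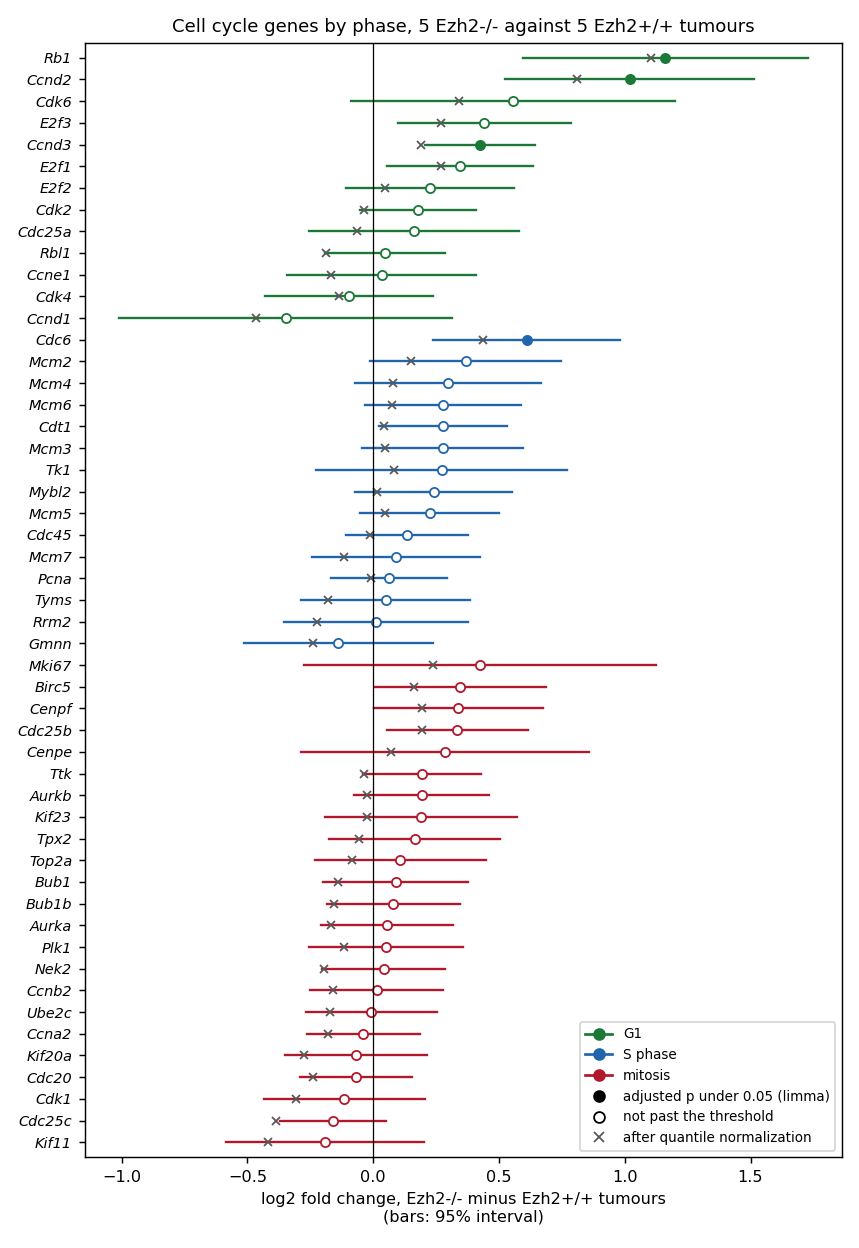
Log2 fold change of each measured cell cycle gene (Ezh2-/- minus Ezh2+/+ tumours, horizontal axis) by phase, with its 95% interval from limma. Filled points mark the 4 genes past the threshold, open points the other 47, and crosses the value after quantile normalization, which lies left of the point in every row and below 0 for 30 of 51 genes.

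The sign of some of the other members depended on the scaling. It reversed in 20 of them after quantile normalization, in 17 after cyclic loess and in 3 after median centring. Over all measured members the log2 fold change was positive in 41 of 51 with the deposited values, in 38 after median centring, in 24 after cyclic loess and in 21 after quantile normalization. Its median was 0.17 over the members, against 0.03 over all genes and 0.15 over the 13308 genes with the highest mean signal, a set that holds all 51 members. By phase the median was 0.23 in G1, 0.24 in S phase and 0.08 in mitosis with the deposited values, and 0.05, 0.04 and −0.14 in the same order after quantile normalization. The median of all members was −0.04 after quantile normalization and −0.01 after cyclic loess. Among the phases only the mitotic median turned, while those of G1 and S phase fell but stayed positive. The 4 changed members, picked by their adjusted p in the deposited values, stayed positive under all 3 other scalings. E2f1, E2f2, E2f3 and Mcm3 to Mcm6, which did not pass, did so too. The calls of Ccnd3 and Cdc6 were lost after quantile normalization and cyclic loess.

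The D-type cyclins, which activate Cdk4 and Cdk6 in G1, differed from each other. Ccnd2 was at 6.86, 6.36, 6.57, 7.36 and 6.41 in Ezh2-/- replicates 1 to 5 and at 5.32, 6.41, 5.41, 5.57 and 5.75 in Ezh2+/+ replicates 1 to 5 (log2 signal, as are all values per tumour below). It was 1.02 higher in Ezh2-/- tumours on the log2 scale (SE, the standard error, 0.23, adjusted p = 0.0140 from limma), and the genotypes overlapped through Ezh2+/+ replicate 2, which reached the lowest Ezh2-/- tumours. Ezh2-/- replicate 4 and Ezh2+/+ replicate 2 had the most Ccnd2 in their genotype. They also had the highest summed fibroblast, endothelial and basal markers of their genotype, and the part of these cells in the difference was not tested. Ccnd3 was at 7.25, 7.31, 7.21, 7.26 and 7.35 in Ezh2-/- tumours and at 7.04, 6.69, 6.83, 6.99 and 6.70 in Ezh2+/+ tumours. The Ezh2-/- values of Ccnd3 lay close together (SD 0.055, against 0.159 in Ezh2+/+ tumours, n = 5 each) and above all controls, with a log2 fold change of 0.43 (SE 0.10, adjusted p = 0.0177 from limma). That call was lost after quantile normalization (log2 fold change 0.19, adjusted p = 0.254) and cyclic loess (0.22, adjusted p = 0.193).

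Ccnd1, the D-type cyclin most often tied to breast cancer, did not pass the test. It was at 8.45, 8.50, 9.00, 8.72 and 8.19 in Ezh2-/- tumours and at 10.13, 8.89, 8.09, 9.00 and 8.50 in Ezh2+/+ tumours. A single control, Ezh2+/+ replicate 1, stood above the other 9 tumours, which overlapped, and the log2 fold change was −0.35 with a 95% interval of −1.01 to 0.31 (adjusted p = 0.443 from limma). Without Ezh2+/+ replicate 1 it was −0.046 (adjusted p = 0.894). The kinases that D-type cyclins activate did not pass either, with log2 fold changes of 0.55 for Cdk6 (95% interval −0.09 to 1.20) and −0.10 for Cdk4, which turned to 0.01 when Ezh2+/+ replicate 4 was left out. Cdk6 varied between 6.38 and 7.27 in Ezh2-/- tumours, and more widely between 5.54 and 7.31 in Ezh2+/+ tumours, the control with most Ccnd1 being also the one with most Cdk6. Ccne1, which activates Cdk2 at the end of G1, Cdk2 itself and Cdc25a, the phosphatase that removes inhibitory phosphates from Cdk2, had log2 fold changes of 0.03, 0.18 and 0.16, and all 3 were below 0 after quantile normalization.

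Rb1, which encodes the retinoblastoma protein that holds E2F factors inactive, had the largest log2 fold change of the members. It was at 9.84, 10.08, 10.36, 10.21 and 9.47 in Ezh2-/- tumours and at 9.44, 9.35, 8.95, 8.17 and 8.24 in Ezh2+/+ tumours. The groups did not overlap, although the lowest Ezh2-/- tumour and the highest control were nearly level, and the log2 fold change was 1.16 (SE 0.26, adjusted p = 0.0143 from limma). A second, dimmer probe set of Rb1 moved the same way, at 3.33 to 3.92 in Ezh2-/- tumours, against 2.62 to 2.87 in Ezh2+/+ tumours (log2 fold change 0.82, SE 0.13, adjusted p = 0.00137 from limma over all probe sets). All its values lay below the median of every array (4.35 to 4.67), so this probe set is weak evidence. Rbl1, the related pocket protein p107, had a log2 fold change of 0.05, which was below 0 after quantile normalization and cyclic loess.

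The activating E2F factors, which switch on the genes of DNA synthesis, had positive log2 fold changes, none of which passed in the fit of all 10 tumours. E2f3 was at 5.74, 6.09, 6.10, 6.27 and 5.54 in Ezh2-/- tumours and at 5.50, 5.41, 5.55, 5.86 and 5.21 in Ezh2+/+ tumours. E2f1 was at 5.66, 5.57, 5.46, 5.54 and 5.49 in Ezh2-/- tumours and at 5.53, 5.26, 4.96, 5.39 and 4.85 in Ezh2+/+ tumours. In each of them 3 Ezh2-/- tumours lay above all controls, and the log2 fold changes of 0.44 (E2f3, adjusted p = 0.0762 from limma) and 0.35 (E2f1, adjusted p = 0.0938) missed the threshold. E2f3 passed it with the replicate number as a block (adjusted p = 0.0234) and with weights per array (log2 fold change 0.48, adjusted p = 0.0367). E2f2 had a log2 fold change of 0.23 (adjusted p = 0.322), and all 3 factors stayed positive under each scaling.

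**Figure D2:**
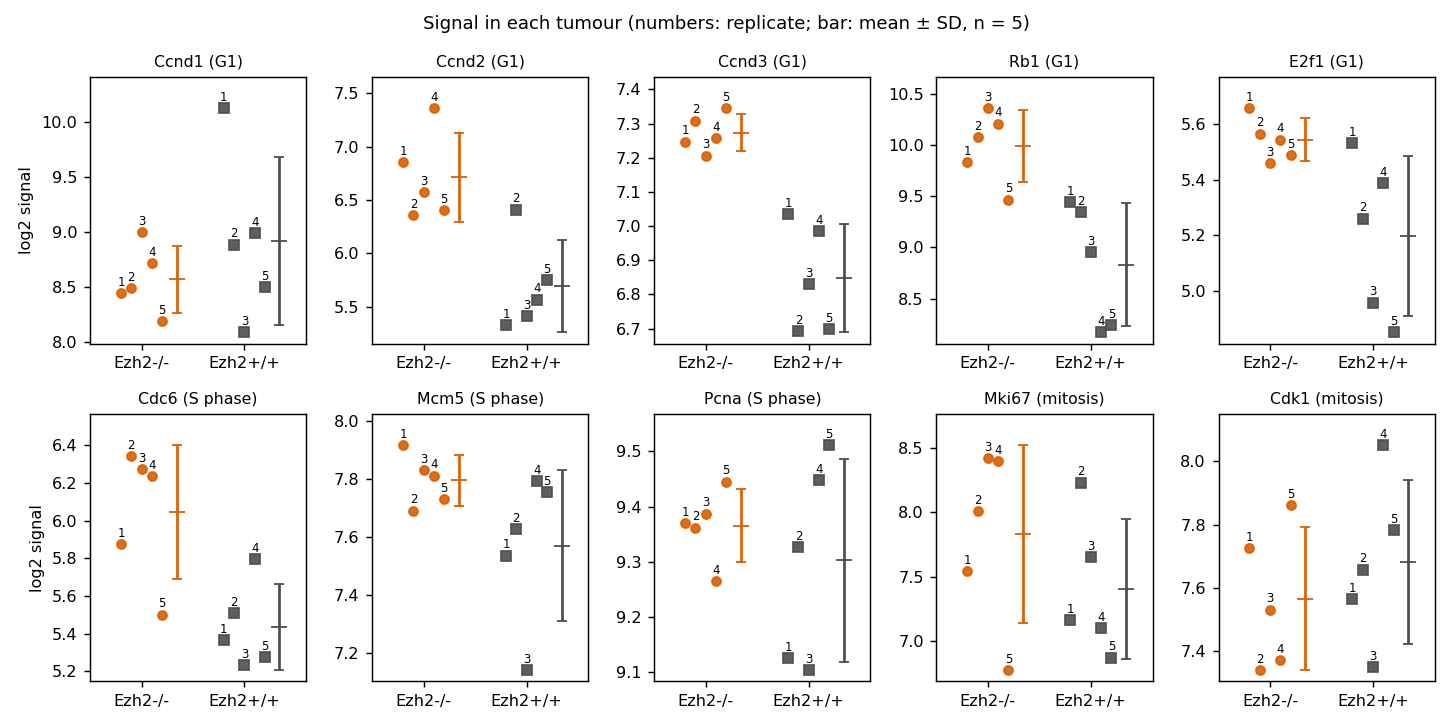
Log2 signal of 10 cell cycle genes in each tumour, Ezh2-/- (circles) left of Ezh2+/+ (squares), with the replicate number above each point and the mean ± SD of 5 tumours beside it; the vertical axis differs between panels. Ccnd3 and Rb1 separate the genotypes, Ccnd2 and Cdc6 overlap through 1 or 2 tumours, and Ccnd1, Pcna, Mki67 and Cdk1 overlap broadly.

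Of the genes that license replication origins, Cdc6, which loads the MCM helicase onto origins together with Cdt1, was the member of S phase that changed. Cdc6 was at 5.87, 6.34, 6.27, 6.24 and 5.50 in Ezh2-/- tumours and at 5.36, 5.51, 5.23, 5.80 and 5.27 in Ezh2+/+ tumours. Ezh2-/- replicate 5 lay within the control range and the other 4 above it, with a log2 fold change of 0.61 (SE 0.17, adjusted p = 0.0341 from limma). The log2 fold change was 0.54 to 0.75 in the 10 fits that left 1 tumour out, but the call was lost in 6 of them, namely without Ezh2-/- replicate 2, 3 or 4 or Ezh2+/+ replicate 1, 3 or 5 (adjusted p = 0.0556 to 0.0831), and after quantile normalization (adjusted p = 0.113) and cyclic loess (adjusted p = 0.0905).

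Cdt1 was at 6.76, 6.80, 6.91, 6.81 and 6.72 in Ezh2-/- tumours and at 6.46, 6.62, 6.38, 6.87 and 6.30 in Ezh2+/+ tumours. Of the controls, 4 lay below all Ezh2-/- tumours and replicate 4 among them, and the log2 fold change of 0.28 did not pass (adjusted p = 0.119 from limma). Geminin (Gmnn), which inhibits Cdt1 after origins have fired, had a log2 fold change of −0.14 (adjusted p = 0.60). The 6 MCM genes encode the subunits of the replicative helicase that unwinds DNA at the fork, and none passed. Mcm2 was at 7.39, 7.39, 7.71, 7.44 and 7.32 in Ezh2-/- tumours and at 6.93, 7.71, 6.73, 7.26 and 6.78 in Ezh2+/+ tumours. Here too 4 controls lay below all Ezh2-/- tumours, with the fifth, replicate 2, level with the highest of them (log2 fold change 0.37, adjusted p = 0.161 from limma). Mcm4, Mcm6, Mcm3 and Mcm5 had log2 fold changes of 0.30, 0.28, 0.28 and 0.22, and these stayed positive under all scalings. Mcm7 and Cdc45, a further part of the helicase, had 0.09 and 0.13, and both turned negative after quantile normalization.

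Pcna, the sliding clamp that holds DNA polymerase on its template and a common marker of proliferation, was at 9.37, 9.36, 9.39, 9.26 and 9.45 in Ezh2-/- tumours and at 9.13, 9.33, 9.10, 9.45 and 9.51 in Ezh2+/+ tumours. The Ezh2-/- tumours lay within the range of the controls, with a log2 fold change of 0.06 and a 95% interval of −0.17 to 0.30 (adjusted p = 0.711 from limma). The value turned to −0.01 after quantile normalization. The enzymes of nucleotide supply, Tk1 (thymidine kinase), Tyms (thymidylate synthase) and Rrm2 (a subunit of ribonucleotide reductase), had log2 fold changes of 0.27, 0.05 and 0.01, of which those of Tyms and Rrm2 turned negative after quantile normalization. Mybl2, a transcription factor that hands over from the E2F wave to the mitotic wave, had 0.24 (adjusted p = 0.257). The 15 S phase members ranged from −0.14 to 0.61.

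None of the 23 mitotic members changed by limma over the 10 tumours, and their log2 fold changes ranged from −0.19 (Kif11, the spindle motor Eg5) to 0.43 (Mki67). The equal-variance test had 1 higher (Cdc25b) and 1 lower (Cdc25c) at an unadjusted p under 0.05. Mki67, which encodes the proliferation marker Ki-67, was at 7.54, 8.01, 8.42, 8.40 and 6.78 in Ezh2-/- tumours and at 7.16, 8.23, 7.65, 7.10 and 6.87 in Ezh2+/+ tumours. It varied more between tumours of a genotype than between genotypes: the lowest of all 10 was an Ezh2-/- tumour, replicate 5, and so were the highest, replicates 3 and 4. Its log2 fold change was 0.43 with a 95% interval of −0.27 to 1.13 (adjusted p = 0.374 from limma).

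Cdk1, the kinase that starts mitosis, was at 7.73, 7.34, 7.53, 7.37 and 7.86 in Ezh2-/- tumours and at 7.56, 7.66, 7.35, 8.05 and 7.78 in Ezh2+/+ tumours. The genotypes overlapped over nearly their whole range, with a log2 fold change of −0.12 and a 95% interval of −0.43 to 0.20 (adjusted p = 0.610 from limma). Its partners Ccna2 and Ccnb2 had −0.04 and 0.01, and both changed sign in fits that left out a tumour. The phosphatases that activate Cdk1 had fold changes of opposite sign, neither of which passed: Cdc25b was at 5.61, 5.46, 5.57, 5.89 and 5.90 in Ezh2-/- tumours and at 5.00, 5.47, 5.45, 5.39 and 5.45 in Ezh2+/+ tumours. In Cdc25b all Ezh2-/- tumours but replicate 2 lay above the controls, and the log2 fold change of 0.34 did not pass (adjusted p = 0.0944 from limma). Cdc25c had −0.16 (adjusted p = 0.260), and was lower after quantile normalization (log2 fold change −0.39, adjusted p = 0.0496).

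Of the genes of chromosome segregation, Birc5 (survivin, which acts with Aurkb in the chromosomal passenger complex) was at 5.77, 6.06, 5.87, 5.93 and 6.33 in Ezh2-/- tumours and at 5.67, 6.02, 5.17, 5.65 and 5.71 in Ezh2+/+ tumours. Cenpf, a kinetochore protein, was at 5.38, 5.79, 5.95, 6.05 and 5.30 in Ezh2-/- tumours and at 5.32, 5.57, 5.45, 5.25 and 5.20 in Ezh2+/+ tumours. Both overlapped between the genotypes, with log2 fold changes of 0.35 (adjusted p = 0.141 from limma) and 0.34 (adjusted p = 0.148). The kinetochore motor Cenpe had a log2 fold change of 0.29 with the wide 95% interval of −0.29 to 0.86. Aurkb, Kif23 (a motor of cytokinesis), Tpx2 (which activates Aurka on the spindle) and Ttk (the checkpoint kinase Mps1) had 0.19, 0.19, 0.17 and 0.19, and all 4 turned negative after quantile normalization. The checkpoint genes Bub1 and Bub1b had 0.09 and 0.08, Top2a, which untangles sister chromatids, had 0.11, and the kinases Aurka, Plk1 and Nek2 had 0.05, 0.05 and 0.04. These 6 were negative after quantile normalization and after cyclic loess. Kif20a, a motor of cytokinesis, had −0.07, and the anaphase-promoting complex's activator Cdc20 and its ubiquitin-conjugating enzyme Ube2c had −0.07 and −0.01. The 13 mitotic members with both CHR and CCAAT letters in their window ran over the whole range, from −0.19 (Kif11) to 0.43 (Mki67).

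**Figure D3:**
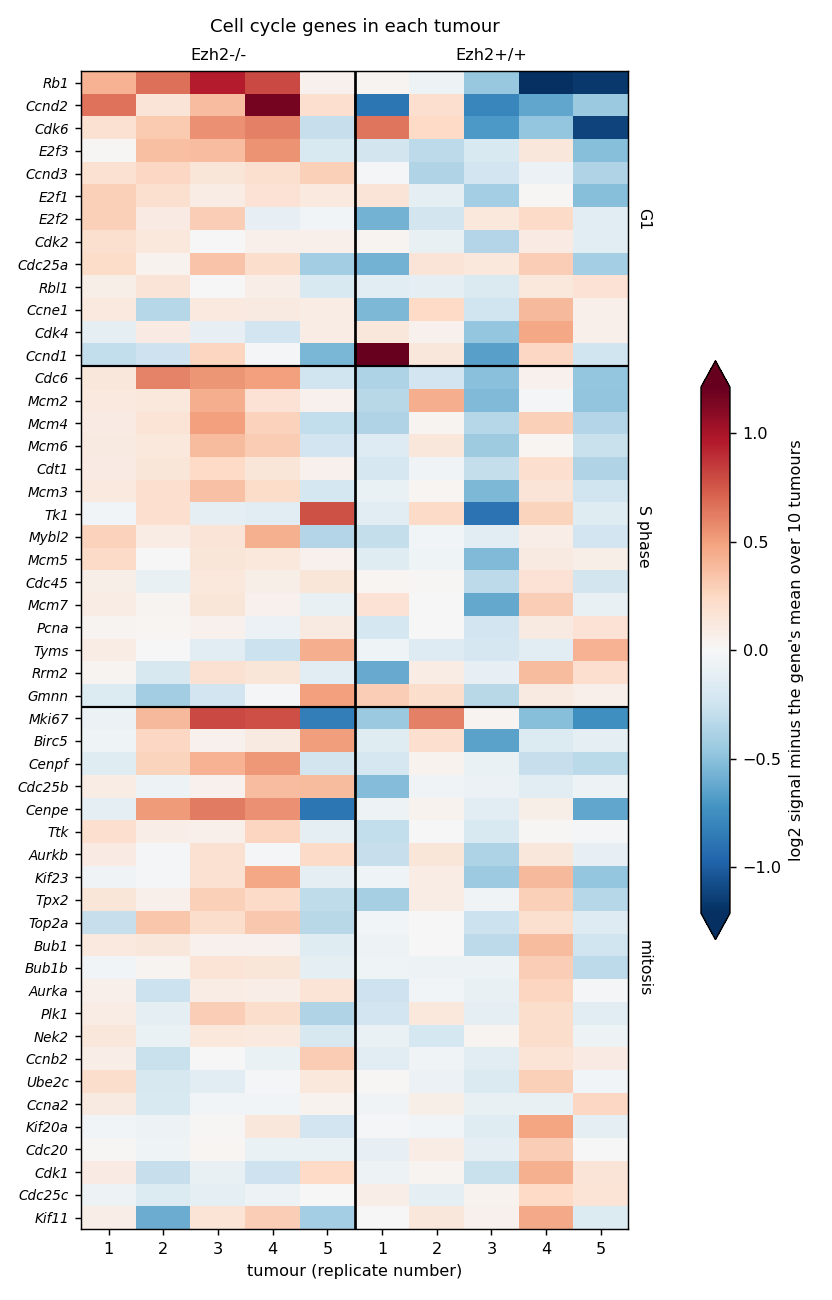
Log2 signal of each measured cell cycle gene minus its mean over the 10 tumours (colour, saturated at the ends of the bar), with Ezh2-/- replicates 1 to 5 left of Ezh2+/+ replicates 1 to 5 and genes ordered by phase and log2 fold change. Ezh2-/- replicate 5 stands out by Mki67 and Cenpe below and Tk1 and Gmnn above the other Ezh2-/- tumours, and Ezh2+/+ replicate 4 is the highest control in 33 of 51 genes.

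The spread between tumours of a genotype was of the size of most differences. The median SD of a member was 0.20 in Ezh2-/- and 0.25 in Ezh2+/+ tumours, against 0.20 and 0.21 over all genes, and the Ezh2+/+ SD was the larger in 37 of 51 members (12 of 13 in G1) and in 11491 of 22180 genes. The level of a phase, taken as the mean over its genes of the signal minus each gene's mean over the 10 tumours, was 0.16 ± 0.13 in Ezh2-/- and −0.16 ± 0.18 in Ezh2+/+ tumours for G1 (SD, n = 5 each). It was 0.10 ± 0.058 in Ezh2-/- and −0.10 ± 0.21 in Ezh2+/+ tumours for S phase, and 0.05 ± 0.12 in Ezh2-/- and −0.05 ± 0.14 in Ezh2+/+ tumours for mitosis. The differences of 0.32, 0.20 and 0.10 became 0.15, 0.01 and −0.10 after quantile normalization. They are given without a test.

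**Figure D4:**
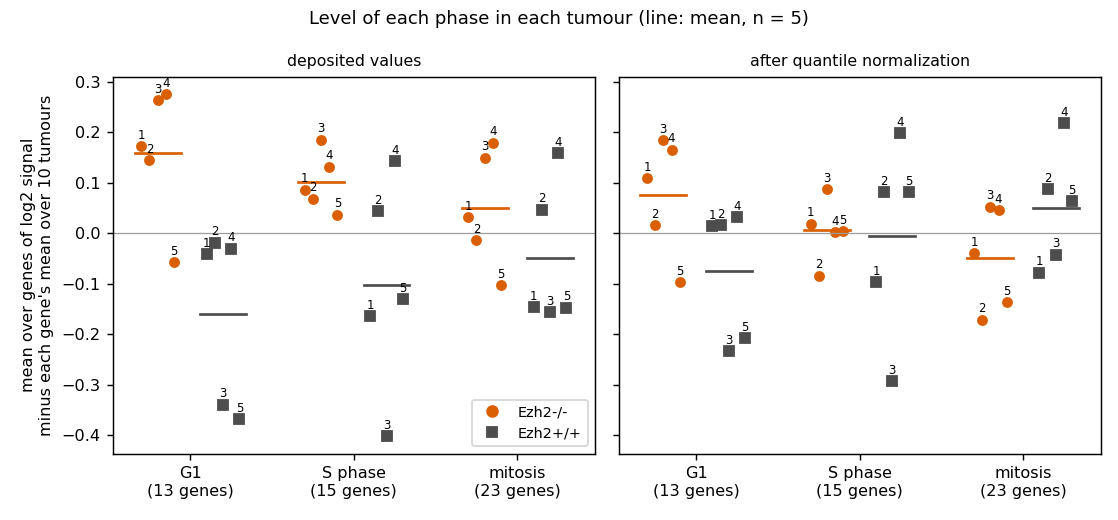
Level of each phase in each tumour (mean over its genes of log2 signal minus the gene's mean over 10 tumours, vertical axis), Ezh2-/- (circles) left of Ezh2+/+ (squares), with replicate numbers and a line at the mean of 5 tumours, from deposited values on the left and after quantile normalization on the right. The G1 difference of 0.32 narrows to 0.15, and the mitotic difference turns from 0.10 to −0.10.

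Among the controls, Ezh2+/+ replicate 4 was the highest in 33 of 51 members (17 of 23 in mitosis, 10 of 15 in S phase and 6 of 13 in G1), whereas it was the highest control in 20.8% of all genes. Ezh2+/+ replicate 3 was the lowest in 24 members (11 of 15 in S phase) and the highest in 0, against 18.8% and 17.6% of all genes. The controls had a mitotic level of 0.16 in replicate 4, 0.05 in replicate 2 and −0.15 to −0.16 in the other 3.

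Among Ezh2-/- tumours, replicate 5 was an extreme for most members. It was the lowest in 26 and the highest in 13 of 51, against 29.2% and 29.7% of all genes, and it did not shift the genes of a phase as one. Mki67 was 1.31 below the mean of the other 4 in this tumour on the log2 scale (6.78 against 7.54 to 8.42) and Cenpe 1.27 below (5.24 against 6.01 to 6.75). In the same tumour Tk1 was 0.79 above the mean of the other 4 (8.58 against 7.67 to 8.01), Gmnn 0.71 above and Tyms 0.52 above, and the mitotic genes Birc5, Ccnb2 and Cdk1 were 0.42, 0.38 and 0.37 above it. Replicate 5 also had the highest summed T cell markers of the Ezh2-/- tumours, the lowest summed luminal markers and, next to replicate 1, the highest skeletal muscle markers. Without it, 6 members were higher by limma, against 11.4% of all genes: the same 4, E2f3 (log2 fold change 0.54, adjusted p = 0.0273) and Mybl2 (0.36, adjusted p = 0.0473). With this tumour alone left out, Mki67 had a log2 fold change of 0.69 (adjusted p = 0.0900) and Cenpe 0.54 (adjusted p = 0.0581), still short of the threshold. Replicate 5 was the lowest Ezh2-/- tumour in E2f3, Mybl2, Mki67 and Cenpe, so leaving it out by itself raises these fold changes.

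**Figure D5:**
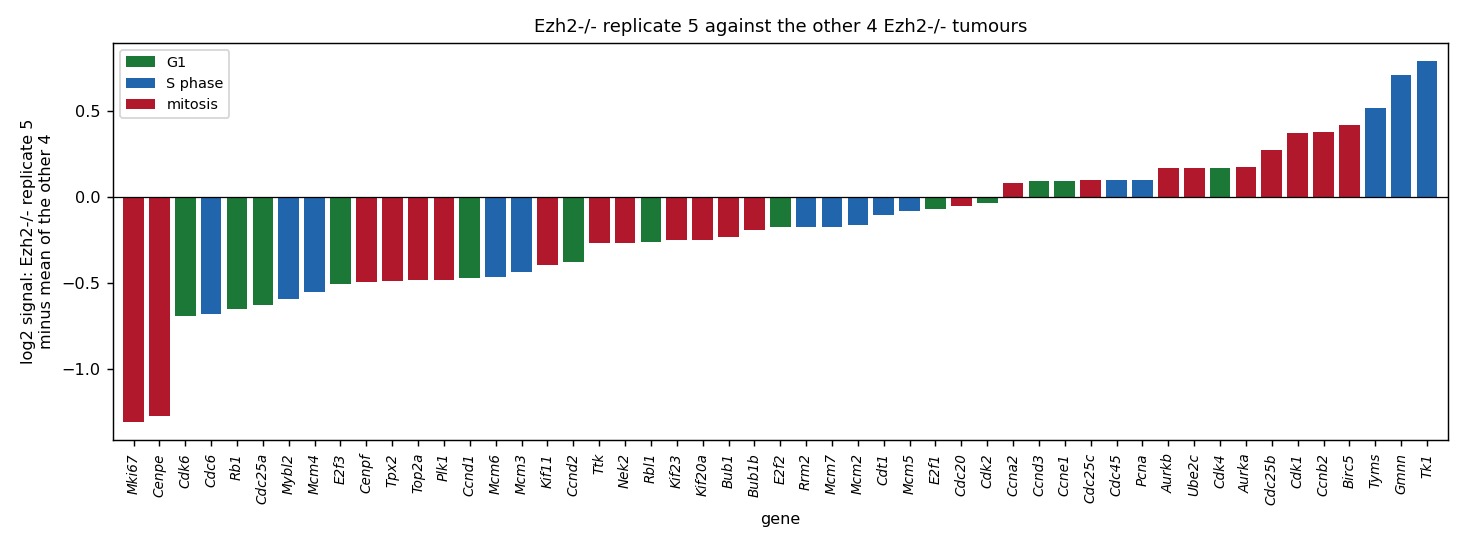
Log2 signal in Ezh2-/- replicate 5 minus the mean of the other 4 Ezh2-/- tumours (vertical axis) for each measured cell cycle gene, sorted, with bars coloured by phase. Mki67 (−1.31) and Cenpe (−1.27) lie at the low end and Tyms (0.52), Gmnn (0.71) and Tk1 (0.79) at the high end, with genes of all 3 phases on both sides of 0.

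Other genes of the pathways were taken from lists by function. Of 21 other genes of the G1 and pocket protein pathway 1 was higher and none lower by limma: E2f4, the E2F that represses target genes together with pocket proteins, was at 8.03, 8.07, 8.20, 8.08 and 7.81 in Ezh2-/- tumours and at 7.34, 7.62, 7.41, 7.84 and 7.36 in Ezh2+/+ tumours (log2 fold change 0.52, adjusted p = 0.0165). Ezh2+/+ replicate 4 alone reached the range of the Ezh2-/- tumours, and the call of E2f4 was lost after quantile normalization (adjusted p = 0.0725) and cyclic loess (adjusted p = 0.0580). E2f7, E2f6 and Foxm1 (the transcription factor of the mitotic wave) had the next smallest p, with log2 fold changes of 0.39, 0.33 and 0.35 that did not pass (adjusted p = 0.0944 to 0.105). Of 38 other genes of DNA replication, 1 was higher: Pole, the catalytic subunit of the leading-strand polymerase, at 0.69 (SE 0.21, adjusted p = 0.0443 from limma). That value rests on its brightest probe set, since the mean of its probe sets gave 0.12 (adjusted p = 0.582). The call was also lost in 6 of 10 fits that left out a tumour, the same tumours as for Cdc6, and after median centring (adjusted p = 0.0595), cyclic loess (0.0929) and quantile normalization (0.114). Chaf1a, Gins2 and Gins3 had log2 fold changes of 0.47, 0.39 and 0.30 (adjusted p = 0.0741 to 0.121). Of 40 other mitotic genes 0 changed by limma, with 0 higher and 1 lower at an unadjusted p under 0.05 (0 and 2 by the equal-variance test), the lowest p being that of Hmmr (log2 fold change −0.30, adjusted p = 0.110).

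The inhibitors of cyclin-dependent kinases went in opposite directions. Cdkn2c, which encodes p18, an inhibitor of Cdk4 and Cdk6, was at 6.43, 5.74, 6.16, 6.42 and 6.63 in Ezh2-/- tumours and at 5.83, 5.41, 5.71, 5.12 and 5.59 in Ezh2+/+ tumours (log2 fold change 0.74, adjusted p = 0.0178 from limma). Cdkn1b, which encodes p27, an inhibitor of cyclin E and Cdk2, was at 6.80, 7.08, 6.69, 6.79 and 7.24 in Ezh2-/- tumours and at 7.60, 7.50, 7.23, 7.27 and 7.52 in Ezh2+/+ tumours (log2 fold change −0.51, adjusted p = 0.0234). Thus Cdkn2c rose and Cdkn1b fell, each with an overlap through 1 tumour of each genotype. Cdkn2c lost its call without Ezh2-/- replicates 1 and 5 (log2 fold change 0.57, adjusted p = 0.0609) and after quantile normalization (adjusted p = 0.0881 from limma) and cyclic loess (adjusted p = 0.0858), and Cdkn1b in 4 of 10 fits that left out a tumour, namely Ezh2-/- replicate 1, 3 or 4 or Ezh2+/+ replicate 5 (adjusted p = 0.0536 to 0.0615). Cdkn2a, the locus of p16 and p19Arf and a known target of PRC2 in many cells, was at 5.86, 5.53, 6.20, 6.08 and 6.10 in Ezh2-/- tumours and at 7.77, 6.37, 5.86, 7.91 and 6.26 in Ezh2+/+ tumours. Its high values stood in a pair of controls, replicates 1 and 4, and the log2 fold change of −0.88 did not pass (adjusted p = 0.109). Cdkn2d (p19) had 0.40 (adjusted p = 0.0810), and the other 3 inhibitors did not pass.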

How the data were processed

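Total RNA of 10 whole tumours was hybridized to 1 Affymetrix Mouse Gene array each. The authors summarised and normalized the scans by gene with Affymetrix Expression Console. The deposited values run between 0.595 and 13.2 and were read as log2 signal, the log base and algorithm being not given in the sources used here. Columns of comparisons made in Transcriptome Analysis Console were not used. Of 41345 probe sets, 23521 had 1 gene symbol and 1820 several, 16004 are not listed in the annotation table, and 23328 of those with 1 symbol matched a RefSeq gene by Entrez ID. They gave 22180 genes, each read from its brightest probe set with no filter on dim genes.

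Genotypes were compared with limma 3.58.1 (lmFit and eBayes with the default prior) in R 4.3.3, two-sided, with Benjamini-Hochberg adjustment over all genes, and calls were made where the adjusted p was under 0.05. Nothing in the labels says more of the replicates than that they are biological, so p-values measure the spread between these tumours, and 5 tumours a genotype limit the precision. The test was checked on data simulated from the mean and spread of each gene in these data. There limma recovered 82 of 100 genes changed 2-fold, but only 28 of 100 changed 1.5-fold. Far fewer genes were changed there than the 1617 higher and 1676 lower called here. The adjustment was thus stricter, and these shares cannot be carried over to the data. A member that did not pass may still differ by any fold within its 95% interval. That interval was −0.17 to 0.30 for Pcna and −0.09 to 1.20 for Cdk6 on the log2 scale.

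The members and lists were chosen with earlier results of these data known. Values per tumour are given for each member called, for the 3 members with the smallest p of each phase, and for Mki67, Pcna, Ccnd1 and Cdk1, and of each other list up to 4 genes with the smallest p are named. Of these E2f4 is given per tumour. E2f1, E2f3 and the inhibitors were given per tumour after their values were seen. Alternatives were the methods' test (an equal-variance test per gene), weights per array, a robust prior with an intensity trend, 3 scalings (median centring, cyclic loess, quantile normalization), a test without the 40% dimmest genes, all probe sets, their mean per gene, the replicate number as a block, fits that each left 1 tumour out and, added after the data were seen, a fit without Ezh2-/- replicates 1 and 5. Promoter sequences are from RefSeq (GRCm38.p6), and no window of Ccnd1, Ccnd2, Ccne2, Rb1, Gmnn, Mcm4, Ccna2, Cdc25c, Aurkb, Tpx2 or Kif20a was at hand. Figures were drawn with matplotlib 3.10.9.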

Additional observations from a re-analysis of the deposited data

Results flagged for a closer look

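In 6 of 112 groups of 5 tumours, 1 tumour stood apart from the other 4 by Dixon's criterion, which chance meets in about 1 of 20 groups. Among Ezh2-/- tumours, replicate 2 was the low one for Ccne1 (5.53, the others 5.96 to 5.99) and for Aurka (6.80, the others 7.12 to 7.23). Among Ezh2+/+ tumours, replicate 5 was high for Tyms (7.22, the others 6.60 to 6.76) and low for Cenpe (5.49, the others 5.99 to 6.19). Ezh2+/+ replicate 1 was low for Cdc25b (5.00, the others 5.39 to 5.47) and Ezh2+/+ replicate 4 high for Kif20a (7.86, the others 7.24 to 7.37). None of these 6 genes passed the test between the genotypes by limma.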

How the results depend on the processing

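Ccnd2 and Rb1 kept their call under all settings but the methods' test after adjustment, and Ccnd2, Ccnd3 and Rb1 in all 10 fits that left out a tumour. The methods' test had 1 member higher after adjustment (1 in G1, 0 in S phase), and 8 higher (5 in G1, 2 in S phase, 1 in mitosis) and 1 lower at an unadjusted p. Over all 22180 genes it had 862 higher and 1153 lower after adjustment, and 3572 higher and 3321 lower at an unadjusted p. Quantile normalization had 2 members higher (Ccnd2 and Rb1), 0 of them in S phase, and 1 lower (Cdc25c), and cyclic loess 2 higher, again 0 in S phase. Of the 22180 genes, 723 were higher and 1045 lower after quantile normalization, and 764 higher and 1065 lower after cyclic loess. Leaving out 1 tumour gave 3 to 6 members higher (3 to 4 in G1, 0 to 2 in S phase) and 0 lower. In these fits 748 to 2519 of the 22180 genes were higher and 983 to 1920 lower. Without both Ezh2-/- replicates 1 and 5, 8 members were higher (4 in G1, 1 in S phase, 3 in mitosis) and 0 lower, against 2340 genes higher and 1569 lower. The calls that this fit added are in genes for which these tumours were the lowest of their genotype. The difference in level per tumour became −0.10 (quantile) and −0.079 (cyclic loess) for mitosis and −0.0029 and 0.015 for all members, against 0.10 and 0.19 with the deposited values. Over all genes the count higher ran from 723 (quantile) to 3572 (methods' test, unadjusted) beside 1617, and the count lower from 535 (without the dimmest genes) to 4415 (all probe sets) beside 1676.

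The log2 fold change of members that did not pass the test changed sign after quantile normalization in Ccne1 (−0.17), Cdk2 (−0.037), Cdc25a (−0.067), Rbl1 (−0.19), Cdc45 (−0.013), Mcm7 (−0.12), Pcna (−0.011), Rrm2 (−0.23), Tyms (−0.18), Top2a (−0.083), Ccnb2 (−0.16), Plk1 (−0.12), Aurka (−0.17), Aurkb (−0.027), Nek2 (−0.19), Tpx2 (−0.056), Kif23 (−0.025), Bub1 (−0.14), Bub1b (−0.15) and Ttk (−0.038). It did so after cyclic loess in Ccne1 (−0.14), Cdk2 (−0.020), Cdc25a (−0.041), Rbl1 (−0.17), Mcm7 (−0.10), Rrm2 (−0.20), Tyms (−0.17), Top2a (−0.078), Ccnb2 (−0.14), Plk1 (−0.11), Aurka (−0.15), Aurkb (−0.0065), Nek2 (−0.16), Tpx2 (−0.039), Kif23 (−0.0081), Bub1 (−0.11) and Bub1b (−0.13), after median centring in Ccne1 (−0.00083), Rrm2 (−0.023) and Ccnb2 (−0.021), and with array weights in Ccnb2 (−0.029). Without both Ezh2-/- replicates 1 and 5 it did so in Ccne1 (−0.024), Tyms (−0.11), Ccnb2 (−0.11) and Aurka (−0.0041). Leaving out 1 tumour turned the sign of Cdk4 (−0.23 to 0.0077), Ccne1 (−0.10 to 0.14), Mcm7 (−0.052 to 0.18), Rrm2 (−0.14 to 0.11), Tyms (−0.055 to 0.16), Ccna2 (−0.071 to 0.018), Ccnb2 (−0.062 to 0.082), Ube2c (−0.061 to 0.064), Plk1 (−0.017 to 0.15), Aurka (−0.0032 to 0.13), Nek2 (−0.0073 to 0.10) and Kif20a (−0.11 to 0.042). The cause of these changes was not tested.

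Same-numbered tumours of the genotypes correlated at 0.03, 0.11, 0.18, −0.04 and 0.34 in their deviations, and 4 of 10 correlated best with their own number. These values do not settle whether the numbers pair tumours. The labels name no pairing, so the main fit has no block. With the replicate block, 5 members were called, the same 4 and E2f3 (log2 fold change 0.44, adjusted p = 0.0234 from limma), and 2552 genes were higher, against 1617 in the main fit.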
